A study of Mus musculus with 69 samples.

Results

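The 10 genes described here encode proteins of the dense-core secretory granule, the vesicle in which endocrine cells and neurons mature and store peptide hormones. They were taken by name and not by a measured value, with earlier results of these data known, from 55964 gene IDs in the count tables. The granule proteins, 6 in number, are Chga, Chgb, Scg2, Scg3, Scg5 and Vgf. The processing enzymes, 4 in number, are Pcsk1, Pcsk2, Cpe and Pam. All 10 were present in every table.

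The counts come from 69 RNA sequencing libraries of pituitary, hypothalamus and ovary from female C57BL/6J mice staged for proestrus, the day before ovulation. WT mice carry the normal Zeb1 gene, which encodes a transcriptional repressor, and the mutants carry point changes knocked into its 3′ UTR, at the sites that miR-200a and miR-200b read. Zeb1_200H mice have them on 1 allele and Zeb1_200M mice on both (200H and 200M below). The knock-in was present in every cell of the animal, came from a pair of clonal embryonic stem cell lines, and was backcrossed to C57BL/6J before use. Young females were virgin and 8 to 12 weeks old, and older females were 28 to 36 weeks old, had been through a breeding trial and had been housed singly. Each of the 18 groups held 4 libraries from different mice, except that young WT pituitary, older 200M pituitary and older 200M hypothalamus held 3. Young libraries were depleted of ribosomal RNA and stranded, and older ones were made from poly(A) RNA without strand, so age, breeding and chemistry cannot be told apart between cohorts. The young WT pituitary library with no usable replicate number is called replicate u.

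Prohormones enter the secretory pathway as long precursors and are packed in the trans-Golgi network together with acidic proteins of the granin family, which aggregate and help granules to form. Inside the granule the convertases PCSK1 and PCSK2 cut the precursor after pairs of basic residues, carboxypeptidase E (CPE) trims those residues away, and PAM amidates the exposed end, a step that many peptide hormones need in order to act. In the anterior pituitary the best known precursor handled in this way is pro-opiomelanocortin (POMC), which corticotropes cut mainly with PCSK1 and melanotropes of the intermediate lobe with PCSK1 and PCSK2. Prolactin and growth hormone are stored in granules of the same kind without needing such cuts.

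The microRNAs whose sites the knock-in removes fall into a pair of families by seed, here given from RefSeq (GRCm38.p6) because the seed is what a target transcript is read by. Bases 2 to 8, the seed, are in capitals.
mmu-miR-200b-3p: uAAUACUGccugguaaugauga
mmu-miR-200c-3p: uAAUACUGccggguaaugaugga
mmu-miR-429-3p: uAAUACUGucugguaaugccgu
mmu-miR-200a-3p: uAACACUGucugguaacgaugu
mmu-miR-141-3p: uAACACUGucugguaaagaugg
miR-200b, miR-200c and miR-429 share the seed AAUACUG, and miR-200a and miR-141 share AACACUG.

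Matches to these seeds were looked for in the annotated 3′ UTRs of the members (GENCODE M21 on GRCm38, gene strand only). Of the 10, Chga, Chgb, Scg2, Scg3, Scg5 and Cpe held no 7mer (CAGTATT for the miR-200b family, CAGTGTT for miR-200a), while Vgf, Pcsk1, Pcsk2 and Pam held at least 1. In all 21004 genes with a 3′ UTR, 13.2% held CAGTATT and 17.1% CAGTGTT. The longer CAGTATTA, found in 3.14% of genes, was present in Pcsk2. The matches in the members that are described most below are given with their flanks, match in capitals.
Vgf, miR-200a 7mer at chr5:137032922-137032928, plus strand: ctcctccctctCAGTGTTtgcatgcgccc
Pcsk2, miR-200b 8mer at chr2:143816075-143816082, plus strand: acctttggcatCAGTATTAacaccaactgt
Pam, miR-200b 7mer at chr1:97821405-97821411, minus strand: ctgcttgaacaCAGTATTctcccagtcca
Pcsk1 held 1 CAGTATT and 2 CAGTGTT matches in a 3′ UTR of 2542 bases, the longest of the 10, against 250 bases in Chgb, the shortest. Such a match is a description of the letters and does not show that a microRNA binds there.

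The repressor ZEB1 binds E-boxes of the letters CAGGTA and CAGGTG, and the cAMP response element TGACGTCA is a well known element of granin promoters. RefSeq promoter windows, 300 bases in length and placed mostly before the start site, were at hand for 8 of the members, Vgf and Cpe having none in the table. On both strands, 5 of the 8 held an E-box, namely Chga, Chgb, Scg2, Scg5 and Pcsk1, against 29.5% of 32851 promoters. TGACGTCA was in Chgb, Scg2 and Pcsk1, against 1.79% of promoters, and its core TGACG, which the longer element contains, was in all of the 8 except Pam, against 20.8%. The promoters of Chga and Scg2, both called higher in 200M pituitary in each cohort below, and that of Pam, which was called in each cohort too and has none of these letters, are printed 5′ to 3′ on the gene strand with the E-box and the response element or its core in capitals.
Chga, chr12:102554691-102554990, plus strand: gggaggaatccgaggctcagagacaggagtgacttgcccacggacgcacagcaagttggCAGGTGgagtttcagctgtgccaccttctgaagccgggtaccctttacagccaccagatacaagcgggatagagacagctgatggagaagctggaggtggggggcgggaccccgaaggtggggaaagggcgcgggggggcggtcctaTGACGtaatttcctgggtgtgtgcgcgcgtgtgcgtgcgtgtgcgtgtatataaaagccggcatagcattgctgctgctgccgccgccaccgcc
Scg2, chr1:79439977-79440276, minus strand: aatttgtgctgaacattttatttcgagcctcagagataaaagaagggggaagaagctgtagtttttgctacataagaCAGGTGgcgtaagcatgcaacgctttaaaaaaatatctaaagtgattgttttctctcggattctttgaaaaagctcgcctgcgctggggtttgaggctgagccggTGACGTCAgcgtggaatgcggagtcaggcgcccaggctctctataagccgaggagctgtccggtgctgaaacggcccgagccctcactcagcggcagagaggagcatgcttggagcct
Pam, chr1:98095597-98095896, minus strand: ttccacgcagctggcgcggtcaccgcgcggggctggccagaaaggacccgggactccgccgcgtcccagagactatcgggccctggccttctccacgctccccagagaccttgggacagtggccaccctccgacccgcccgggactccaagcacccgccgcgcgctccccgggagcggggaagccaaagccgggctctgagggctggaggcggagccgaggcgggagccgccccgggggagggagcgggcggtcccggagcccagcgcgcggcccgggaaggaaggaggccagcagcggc
In Chga the E-box starts 191 bases and the core 44 bases before the start site, and in Scg2 the E-box starts 173 and the response element 68 bases before it. Whether ZEB1 occupies any of them was not measured in these libraries.

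Total counts per library ran from 3321845 in young hypothalamus to 14655095 in older ovary. Zeb1 itself was higher in the pituitary of both mutants in both cohorts, with means in the young cohort of 95.6 counts per 1000000 library counts (CPM) in WT, 130 CPM in 200H and 138 CPM in 200M, and it was not called changed in hypothalamus or ovary. The tissues carried their own markers, with Gh, which encodes growth hormone, at no less than 24588 CPM in every pituitary library and Zp3, an oocyte gene, at no less than 26.2 CPM in every ovary library. Gad1, the GABA-synthesis enzyme of many hypothalamic neurons, was at no less than 168 CPM in hypothalamus and at no more than 0.621 CPM in pituitary. The counts of Prl, Gh and Pomc together made up 15.3 to 17.02% of a young WT pituitary library and 6.94 to 8.69% of a 200M library, and 27.0 to 29.4% against 17.2 to 21.5% in the older cohort. CPM values here therefore use trimmed-mean (TMM) library sizes.

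In WT mice the members were genes of pituitary and hypothalamus, and ovary carried only Cpe and Pam at more than a few CPM. Per kb of exon, which allows genes to be compared, the order in young WT pituitary was Chgb at 308 ± 4.01 CPM per kb (SD, n = 3), Scg2 at 264 ± 20.3, Scg5 at 197 ± 6.95 and Pam at 170 ± 6.10. Cpe at 115 ± 8.31 and Scg3 at 109 ± 13.6 CPM per kb came next and overlapped. Pcsk2 at 64.1 ± 9.35, Chga at 42.9 ± 3.97, Pcsk1 at 26.6 ± 1.95 and Vgf at 3.96 ± 0.739 CPM per kb closed the order, each below all libraries of the gene before it. Vgf, whose protein is the precursor of several neuropeptides, was thus the member with the lowest WT level in pituitary.

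Older WT pituitary was led by Chgb at 2509 ± 260 CPM per kb (SD, n = 4), followed by Scg2 at 602 ± 75.5 and Scg5 at 537 ± 46.9, which overlapped. Chga at 407 ± 38.0 and Cpe at 400 ± 31.4 CPM per kb overlapped as well. Vgf was again last, at 12.3 ± 4.64 CPM per kb. Chga stood at the eighth place in the young and the fourth in the older libraries, a comparison in which age, breeding and library chemistry cannot be told apart.

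Hypothalamus had another order. Cpe led with 234 ± 13.9 CPM per kb in young and 949 ± 84.7 in older WT (SD, n = 4 each), and Scg2 followed with 169 ± 16.7 and 536 ± 49.1. Vgf was at 26.2 ± 2.78 CPM per kb in young hypothalamus, where its lowest library exceeded its highest in young pituitary, and at 122 ± 26.8 in older hypothalamus. In ovary Cpe was at 157 ± 18.1 and 576 ± 47.0 CPM per kb in young and older WT, Pam at 36.3 ± 2.85 and 53.3 ± 3.52, and Scg5 followed at 1.49 ± 0.417 and 3.36 ± 0.674. The levels of the ovary for Cpe lay between those of pituitary and hypothalamus in both cohorts.

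**Figure D1:**
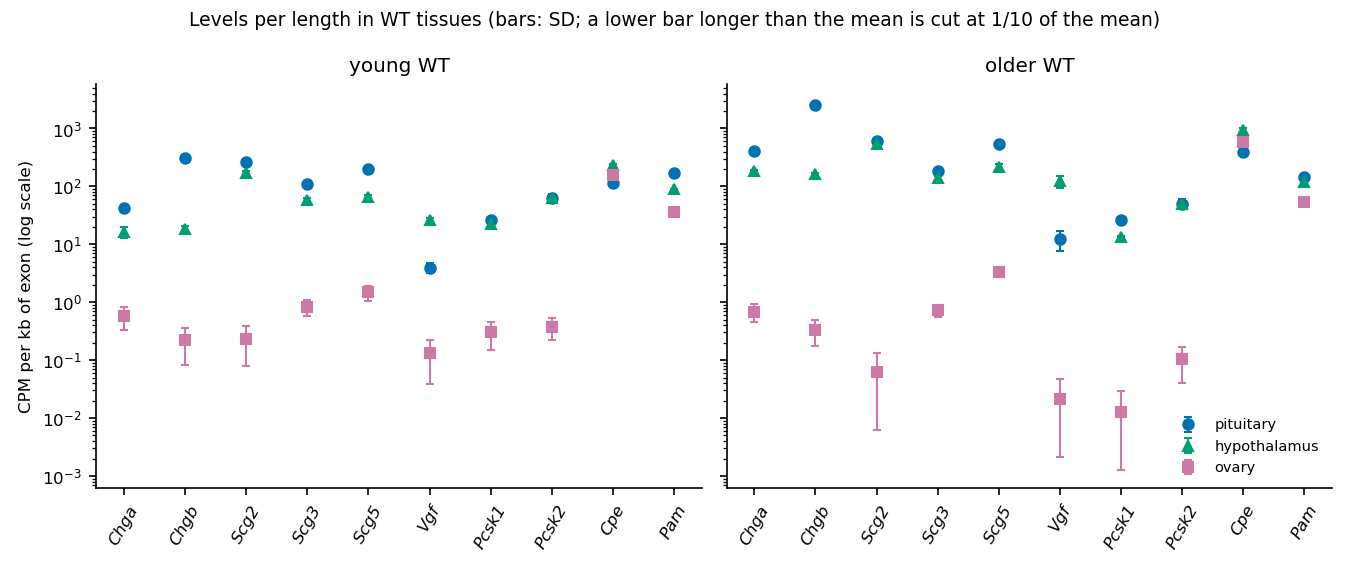
Mean level of each member in WT pituitary, hypothalamus and ovary, in CPM per kb of exon on a log axis, young cohort left and older cohort right (n = 3 in young pituitary, otherwise 4). Bars are SD, and a lower bar longer than its mean is cut at 1/10 of the mean. Chgb leads in pituitary at 308 and 2509 CPM per kb, Cpe in hypothalamus at 234 and 949, and in ovary only Cpe and Pam reach the range of the other tissues.

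The main question was whether the granule genes differ between the genotypes in pituitary, the tissue in which Zeb1 rose. In young pituitary 4 of the 10 members were called higher in 200M than in WT and 0 lower, and in older pituitary 6 of 10 were called higher and 0 lower. A gene is called here when the edgeR quasi-likelihood test with Benjamini-Hochberg adjustment over all genes kept gives an adjusted p under 0.05. Of all genes tested, 21.5% (young) and 21.4% (older) were called, and 11.5% and 11.7% were called higher. The members' median log2 fold change was 0.22 (young) and 0.39 (older), against 0.0017 and -0.013 over all genes. Chga, Scg2, Vgf and Pam were called in both cohorts, while Chgb and Pcsk2 were called in the older cohort. In bulk tissue, more cells of a type and more RNA per cell cannot be told apart.

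Vgf (ENSMUSG00000037428, chr5:137026392-137033351, plus strand) changed most among the members. In young pituitary it was at 12.4, 9.24 and 13.4 CPM in WT replicates 1, 2 and u, at 23.3, 42.6, 16.2 and 21.0 CPM in the 200H libraries, and at 65.2, 42.8, 60.7 and 37.3 CPM in the 200M libraries. Each mutant library lay above every WT library, and 200H and 200M overlapped only through 200H replicate 2. Over WT, 200M was higher by 2.14 ± 0.18 on the log2 scale (SE, n = 4 against 3), a 4.40-fold difference, with adjusted p = 1.33e-06 by edgeR. In older pituitary Vgf was at 36.8, 53.5, 35.2 and 20.02 CPM in WT, at 48.6, 58.0, 105 and 87.0 CPM in 200H and at 164, 207 and 191 CPM in 200M. The 3 older 200M libraries stood above all others, and they exceeded WT by 2.37 ± 0.22 on the log2 scale (SE, n = 3 against 4), with adjusted p = 1.89e-05 by edgeR. Over the alternatives run, including leaving out each library, the value ran from 2.00 to 2.30 among young mice and from 2.16 to 2.63 among older mice.

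Chga (ENSMUSG00000021194, chr12:102554969-102565028, plus strand) encodes chromogranin A, a granin that condenses with calcium in the forming granule. In young pituitary it was at 89.2, 75.0 and 78.1 CPM in WT, at 104, 105, 108 and 94.9 CPM in 200H and at 133, 108, 122 and 110 CPM in 200M. All WT libraries were below all mutant libraries. Relative to WT, 200M was higher by a log2 fold change of 0.55 ± 0.08 with adjusted p = 0.000244 by edgeR. In older pituitary Chga was at 685, 848, 737 and 799 CPM in WT and at 870, 1215 and 1204 CPM in 200M. The 200M libraries were again the higher ones, by 0.53 ± 0.11 on the log2 scale with adjusted p = 0.00595. In older 200H, by contrast, Chga was at 464, 643, 753 and 761 CPM, a range that ran from below WT into it.

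Scg2 (ENSMUSG00000050711, chr1:79434669-79440120, minus strand) encodes secretogranin II, the precursor of secretoneurin. It was at 716, 664 and 614 CPM in young WT pituitary and at 860, 844, 870 and 790 CPM in 200M, with no overlap. The young 200H libraries, at 740, 941, 788 and 728 CPM, lay above WT too. Older pituitary had 1462, 1792, 1370 and 1428 CPM in WT, 1860, 2345, 1736 and 1748 CPM in 200H and 2041, 2447 and 2074 CPM in 200M. For 200M over WT, edgeR gave 0.33 ± 0.06 on the log2 scale among young mice (adjusted p = 0.000546) and 0.54 ± 0.10 among older mice (adjusted p = 0.00214).

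Chgb (ENSMUSG00000027350, chr2:132781278-132795079, plus strand), which encodes chromogranin B, was at 838, 835 and 855 CPM in young WT and at 1068, 920, 912 and 897 CPM in young 200M. The groups did not overlap, but the log2 fold change of 0.17 ± 0.06 had an adjusted p of 0.0646 by edgeR and was not called. In older pituitary Chgb was at 6092, 7740, 6554 and 7114 CPM in WT and at 8443, 8170 and 8827 CPM in 200M. The log2 fold change there was 0.32 ± 0.09 with adjusted p = 0.0220. This call rested on single libraries, since the adjusted p was 0.0685 without WT replicate 3, 0.0705 without 200M replicate 1 and 0.0977 without 200M replicate 3, and it was 0.125 when the 3 genotypes were fitted together.

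Scg3 and Scg5 were not called in either cohort. Scg3, whose protein tethers chromogranin A to the granule membrane, was at 226 to 290 CPM in young WT and 241 to 262 CPM in young 200M, a log2 difference of -0.05 ± 0.07 (adjusted p = 0.676 by edgeR), and at -0.04 ± 0.09 in the older cohort (adjusted p = 0.798). Scg5, which encodes the PCSK2 chaperone known as secretogranin V, was at 241, 229 and 245 CPM in young WT and at 225, 217, 216 and 202 CPM in young 200M. Those groups did not overlap, and all 200M libraries were lower. Scg5 had a log2 fold change of -0.15 ± 0.06 among young mice (adjusted p = 0.0673 by edgeR) and -0.16 ± 0.08 among older mice (adjusted p = 0.177), where 200M was at 561 to 590 CPM against 604 to 731 CPM in WT.

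Of the enzymes, Pam (ENSMUSG00000026335, chr1:97795114-98095646, minus strand) was called in both cohorts. In young pituitary it was at 719, 671 and 707 CPM in WT and at 831, 832, 881 and 709 CPM in 200M, and 200M replicate 4 lay within the WT range. The log2 fold change was 0.21 ± 0.06 with adjusted p = 0.0187 by edgeR. The adjusted p was 0.0577 without WT replicate 2, 0.0569 without 200M replicate 2 and 0.0665 without 200M replicate 3, so that the young call depended on these libraries. In older pituitary Pam was at 592, 650, 554 and 609 CPM in WT, at 645, 637, 631 and 711 CPM in 200H and at 798, 822 and 839 CPM in 200M. The older 200M libraries lay above all others, 0.46 ± 0.08 above WT on the log2 scale with adjusted p = 0.00122, and the call held when each of the 7 libraries was left out in turn.

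Pcsk2 (ENSMUSG00000027419, chr2:143546156-143816285, plus strand) was at 347, 303 and 259 CPM in young WT pituitary and at 311, 299, 427 and 413 CPM in young 200M. The groups overlapped, and the log2 fold change of 0.25 ± 0.12 was not called (adjusted p = 0.174 by edgeR). In older pituitary it was at 216, 199, 229 and 310 CPM in WT, at 113, 223, 279 and 259 CPM in 200H and at 295, 505 and 472 CPM in 200M. WT replicate 4 and 200M replicate 1 overlapped, yet the log2 fold change was 0.84 ± 0.18 with adjusted p = 0.00567, and with 1 library left out the adjusted p stayed at or under 0.0374. The exons of Pcsk2 overlap those of a pair of antisense genes, Pcsk2os1 and Pcsk2os2, whose reads the unstranded older libraries cannot tell from its own.

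Pcsk1 and Cpe were not called. Pcsk1 was at 136, 143 and 123 CPM in young WT and at 154, 171, 176 and 132 CPM in young 200M, a log2 difference of 0.23 ± 0.08 (adjusted p = 0.0646 by edgeR). It passed the threshold without WT replicate 2 (adjusted p = 0.0403) and without 200M replicate 4 (adjusted p = 0.0113). In older pituitary the log2 fold change of Pcsk1 was 0.22 ± 0.11 (adjusted p = 0.154). Cpe was at 230 to 263 CPM in young WT and 228 to 265 CPM in young 200M, which nearly coincide, a log2 difference of 0.05 ± 0.06 (adjusted p = 0.636), and at 0.15 ± 0.08 in the older cohort (adjusted p = 0.221).

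**Figure D2:**
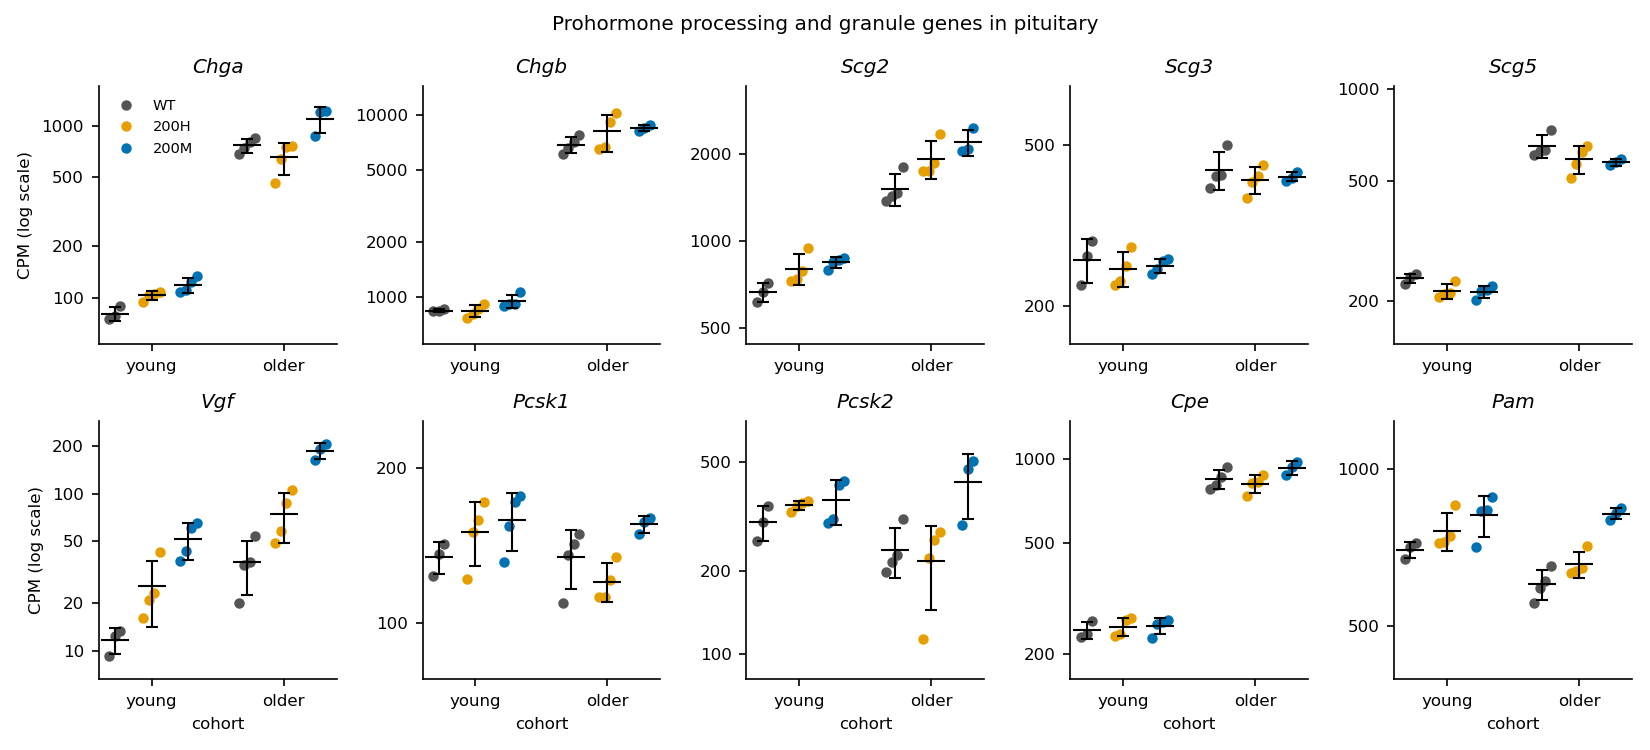
Level of each member in pituitary, in CPM on a log axis, for WT, 200H and 200M in the young (n = 3, 4 and 4) and older cohort (n = 4, 4 and 3). Points are libraries sorted by value, lines are means and bars SD. Vgf rises from 9.24 to 13.4 CPM in young WT to 37.3 to 65.2 CPM in young 200M, and from 20.02 to 53.5 CPM to 164 to 207 CPM in the older cohort.

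Whether the 200M effect on a member differed between the cohorts was tested as an interaction. No member was called, against 0.0273% of 18344 genes, and 1 member, Pcsk2, had an unadjusted p under 0.05 by edgeR. DESeq2 called 0 members in the same design. The effect on Pcsk2 was lower in the young cohort by 0.54 on the log2 scale (95% interval of the difference from -1.01 to -0.06, adjusted p = 0.705). For Vgf the difference of young minus older was -0.18, with an interval from -0.83 to 0.47. A difference between the cohorts was not detectable for any member at this number of mice.

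Mice with 1 changed allele had fewer members called in pituitary than 200M mice in both cohorts, and fewer genes of any kind. Against WT, the share of all genes called was 12.3% (young) and 12.2% (older) in 200H, beside 21.5% and 21.4% in 200M. In young pituitary 2 of the 10 members, Chga and Vgf, were called higher in 200H than in WT, against 12.3% of genes called and 6.56% called higher. The members' median log2 fold change was 0.13, against 0.0067 over all genes. The log2 fold change was 0.34 ± 0.08 for Chga (adjusted p = 0.0134 by edgeR) and 1.14 ± 0.27 for Vgf (adjusted p = 0.0160). Both calls were sensitive to single WT libraries: without WT replicate 2 neither was called (adjusted p = 0.0529 for Chga and 0.0719 for Vgf), without WT replicate 1 Vgf was not (0.0573) and without WT replicate u Chga was not (0.0695). Scg2 had a log2 fold change of 0.26 ± 0.09 and Scg5 of -0.15 ± 0.07, neither called. Pcsk1 passed without 200H replicate 3 (adjusted p = 0.0478).

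In older pituitary 1 member, Vgf, was called higher in 200H than in WT, at a log2 fold change of 1.03 ± 0.27 with adjusted p = 0.0288 by edgeR. Of all genes 12.2% were called in this comparison and 7.09% called higher. The median log2 fold change was -0.06 over the members and -0.0083 over all genes. Vgf lost its call without WT replicate 1, WT replicate 3, 200H replicate 3 or 200H replicate 4, with adjusted p between 0.0650 and 0.0868. Scg2 was 0.35 ± 0.12 higher (adjusted p = 0.0709), and DESeq2 called it as well as Vgf. Chga at -0.22 ± 0.14 and Pcsk2 at -0.12 ± 0.23 were not called, and 200H replicate 1 was the lowest older pituitary library for both.

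Between 200M and 200H few genes of any kind were called. In young pituitary 0 members were called by edgeR and by DESeq2, against 0.0383% of genes. At an unadjusted p under 0.05 there were 3 members, beside 1081 of 18271 genes. Vgf differed by 1.00 ± 0.24 on the log2 scale (adjusted p = 0.270), and it was called, at 1.35 with adjusted p = 0.0191, without 200H replicate 2. In older pituitary Vgf was called higher in 200M than in 200H by 1.35 ± 0.20 (adjusted p = 0.0353 by edgeR), against 0.121% of genes called and 0.0942% called higher. That call was lost without 200H replicate 1 or 4 and without each of the 200M libraries, at adjusted p from 0.0506 to 0.249. Without 200H replicate 2, 4 members were called, a count for which the share of all genes is not given. Chga differed by 0.74 ± 0.16 (adjusted p = 0.105), Pcsk2 by 0.96 ± 0.25 (adjusted p = 0.164), Pcsk1 by 0.37 ± 0.08 (adjusted p = 0.119) and Pam by 0.33 ± 0.08 (adjusted p = 0.122), and for each of these the older 200M and 200H libraries did not overlap.

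Of the markers of cells that use these enzymes, Pomc, Pax7 and Tbx19 were lowest in the same older pituitary library as Pcsk2 and Chga. All of these genes were highest in the same pair of 200M libraries. Crhr1 was neither: it was at 19.4 CPM in 200H replicate 1 and up to 26.7 CPM in 200H, against 11.2 to 15.5 CPM in WT. Pomc was at 8725, 9338, 9229 and 12055 CPM in older WT, at 3763, 9537, 10479 and 8853 CPM in 200H and at 11326, 23993 and 24297 CPM in 200M. The library with the least Pomc, 200H replicate 1, also had the least Pcsk2 (113 CPM), Chga (464 CPM) and Pax7 (15.6 CPM), the melanotrope factor, and the pair of 200M libraries with the most Pomc had the most Pcsk2 and Chga. Of the 4 genes listed as markers of corticotropes and melanotropes, Pomc (1.02 ± 0.21, adjusted p = 0.00469), Pax7 (0.60 ± 0.14, adjusted p = 0.0115) and Crhr1 (0.71 ± 0.14, adjusted p = 0.00354) were called higher in older 200M, and Tbx19 was not (0.30 ± 0.16, adjusted p = 0.222). Their summed level ran from 8861 to 12202 CPM in older WT and from 11463 to 24488 CPM in 200M. Their part in the values of Pcsk2 and Chga was not tested.

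Young pituitary differed in this respect. Pomc was at 614 to 894 CPM in young WT and 642 to 946 CPM in young 200M, a log2 difference of 0.01 ± 0.12 (adjusted p = 0.981 by edgeR), while Chga, Scg2 and Vgf were called. Tbx19 (0.49 ± 0.07, adjusted p = 0.000173) and Crhr1 (1.09 ± 0.17, adjusted p = 0.000363) were called higher there and Pax7 was not (0.36 ± 0.13, adjusted p = 0.0644). In the older libraries, the pair of 200M libraries with the most Pomc also had the most Vgf of all 11 (207 and 191 CPM), while WT replicate 4, the WT library with the most Pomc, had the least (20.02 CPM).

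Neurons also carry dense-core granules, so neuronal markers are given beside the members. Of 4, Syt1 was called higher in 200M pituitary in both cohorts (0.21 ± 0.05, adjusted p = 0.00912, and 0.42 ± 0.08, adjusted p = 0.00228 by edgeR), Rbfox3 in the older cohort (1.35 ± 0.23, adjusted p = 0.00158), and Slc17a6 was called lower in the young cohort. Gad1 was at or near 0, with no library above 0.621 CPM. The summed level of the 4 was 397 to 422 CPM in young WT and 383 to 464 CPM in young 200M, and 260 to 316 against 369 to 394 CPM in the older cohort. Avp and Oxt, the peptides of posterior-lobe axons, summed to no more than 3.17 CPM in young WT and 2.41 CPM in young 200M, and to 3.603 to 6.76 against 8.997 to 11.9 CPM in the older cohort, Oxt being called higher there. Of 3 markers of astrocytes and pituicytes, Gfap was called higher in older 200M (0.99 ± 0.32, adjusted p = 0.0461), and their sum was 10.2 to 12.8 CPM in older WT against 15.5 to 18.8 CPM in 200M, and 24.7 to 27.4 against 24.4 to 25.9 CPM in the young cohort. Mbp, a myelin gene of oligodendrocytes, was called lower in both cohorts (-1.08 ± 0.08, adjusted p = 2.24e-07, and -0.79 ± 0.14, adjusted p = 0.00237 by edgeR). The part of neuronal and glial RNA in the members' values was not tested.

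**Figure D3:**
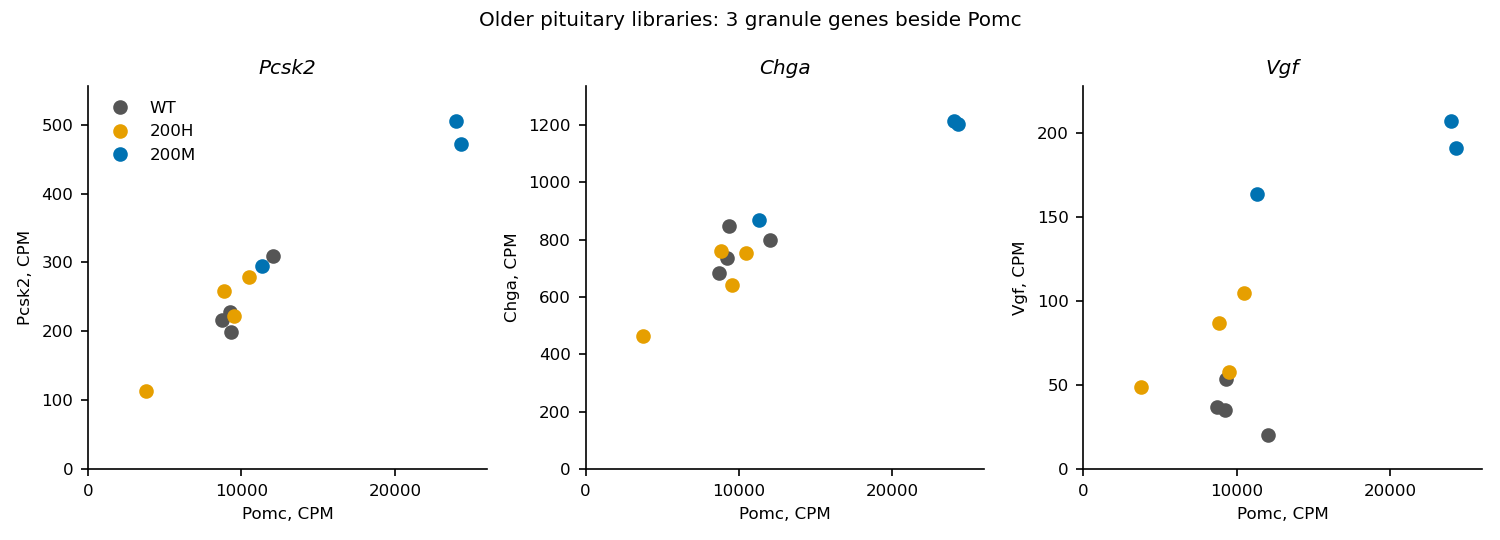
Pcsk2, Chga and Vgf against Pomc in the 11 older pituitary libraries, all in CPM, coloured by genotype (WT and 200H n = 4, 200M n = 3). The pair of 200M libraries with 23993 and 24297 CPM of Pomc have the most Pcsk2 (505 and 472 CPM), Chga and Vgf (207 and 191 CPM). The library with the least Pomc, 200H replicate 1 (3763 CPM), has the least Pcsk2 and Chga, and the WT library with the most Pomc (12055 CPM) has the least Vgf.

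In hypothalamus no member was called in 200M against WT by edgeR or DESeq2, in either cohort. Of all genes 0.02% (young) and 0.00622% (older) were called. At an unadjusted p under 0.05 there were 1 young and 4 older member comparisons, beside 847 of 14988 and 2904 of 16067 genes. The members' median log2 fold change was 0.07 (young) and 0.05 (older). Vgf was at 71.5 to 89.4 CPM in young WT and 57.7 to 95.1 CPM in young 200M hypothalamus, with a log2 fold change of 0.05 ± 0.12, and at -0.08 ± 0.15 in the older cohort.

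Chga had the largest effect in hypothalamus. In the young cohort it was at 26.8, 39.0, 23.4 and 33.5 CPM in WT, at 22.9, 35.9, 32.9 and 33.7 CPM in 200H and at 50.0, 42.0, 39.2 and 60.3 CPM in 200M. All 200M libraries lay above all others, with WT replicate 2 the closest, and they exceeded WT by 0.65 ± 0.15 on the log2 scale with an unadjusted p of 0.000252 and an adjusted p of 0.421 by edgeR. In the older cohort it was at 365, 337, 346 and 349 CPM in WT and at 368, 591 and 398 CPM in 200M. The older groups did not overlap either, and 200M was higher by 0.39 ± 0.14 on the log2 scale with adjusted p = 0.191. With genes of low count kept in the test, Chga was called in both cohorts. Prl and Gh, which mark admixed pituitary RNA, reached 24.6 and 39.7 CPM at most in any hypothalamus library, and older 200M hypothalami had 6.37 to 7.95 CPM of Gh against 0 to 0.493 CPM in WT. In young hypothalamus these traces were higher in WT, with Prl at 4.22 to 24.5 CPM in WT against 0.276 to 3.55 CPM in 200M and Gh at 1.32 to 6.20 against 0.276 to 3.19 CPM. Their part in the values of Chga was not tested.

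The other members of older hypothalamus with an unadjusted p under 0.05 were Scg5, Pcsk2 and Cpe. Scg5 was 0.24 ± 0.11 and Cpe 0.20 ± 0.08 higher in 200M on the log2 scale, and Pcsk2 was at 212, 212 and 204 CPM in 200M against 228, 236, 236 and 250 CPM in WT. Pcsk2 thus had no overlap and the opposite sign to older pituitary, at -0.17 ± 0.07 (adjusted p = 0.246 by edgeR). In 200H against WT 0 members were called in young and in older hypothalamus, where 0.0202% and 0% of genes were called. In 200M against 200H 0 were called as well, beside 0% of genes in each cohort. Unadjusted p under 0.05 was reached by 1 and 0 members in the former comparison, beside 585 of 14877 and 445 of 15910 genes. The latter had 1 and 4 members under it, beside 682 of 14812 and 3144 of 16156 genes. DESeq2 called 1 member in older 200M against 200H, where it called 637 genes in all against 0 by edgeR. It called 0 members in the rest of these comparisons.

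Ovary allowed a test of few members, since 6 of 10 in the young and 5 of 10 in the older cohort passed the filter on low counts in 200M against WT. None was called by edgeR or DESeq2, beside 2.58% and 2.71% of genes. In each cohort 1 member had an unadjusted p under 0.05, beside 3114 of 19250 and 2944 of 17792 genes. Cpe was at 323, 292, 384 and 334 CPM in young WT and at 298, 319, 267 and 273 CPM in young 200M ovary, a log2 difference of -0.19 ± 0.07 (adjusted p = 0.207 by edgeR). In the older cohort it was at 1209, 1097, 1229 and 1340 CPM in WT and at 1004, 849, 742 and 1143 CPM in 200M, at -0.37 ± 0.16 (adjusted p = 0.305). The 200M libraries tended to the lower side, and the groups overlapped. Pam was at 204, 239, 216 and 217 CPM in older WT and at 196, 120, 144 and 175 CPM in older 200M, without overlap and a log2 difference of -0.45 ± 0.16 (adjusted p = 0.196).

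The granins were near the limit of detection in ovary. Chgb was at 0.456 to 1.49 CPM and Scg2 at 0 to 0.350 CPM in older WT ovary, and for both the highest library was WT replicate 1, which alone had 24.2 CPM of Prl and 13.7 CPM of Gh, against no more than 0.657 CPM in the other older ovaries. What that library's pituitary transcripts add to its granin values was not tested. In 200H against WT ovary 0 members were called in either cohort, beside 0.0051% and 0% of genes. Of the members 0 had an unadjusted p under 0.05, beside 1384 of 19621 and 1160 of 17605 genes. In 200M against 200H ovary 0 were called beside 0% (young) and 1.61% (older) of genes. Here 0 and 1 member were under an unadjusted p of 0.05, beside 648 of 19259 and 2320 of 17855 genes. DESeq2 called 0 members in these 4 comparisons.

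The difference between tissues was tested directly, as the interaction of tissue and genotype over 200M and WT. In the young cohort 1 member, Vgf, had a larger effect in pituitary than in hypothalamus, by 2.08 ± 0.23 on the log2 scale (adjusted p = 4.21e-07 by edgeR), against 10.5% of genes called and 6.64% called larger in pituitary. Pcsk2 joined it without pituitary 200M replicate 2, at 0.46 with adjusted p = 0.0395. In the older cohort 4 members had a larger effect in pituitary, Vgf by 2.45 ± 0.31 (adjusted p = 2.70e-05), Pcsk2 by 1.02 ± 0.21 (adjusted p = 0.00315), Pam by 0.55 ± 0.11 (adjusted p = 0.00214) and Scg2 by 0.51 ± 0.15 (adjusted p = 0.0242), against 17.5% of genes called and 10.4% called larger in pituitary. Scg2 was not called without pituitary 200M replicate 2 (adjusted p = 0.0792) or hypothalamus 200M replicate 3 (0.0752). Pcsk1 was called without pituitary WT replicate 1 (0.0341), and Scg5, larger in hypothalamus, without hypothalamus WT replicate 1 (0.0339) or 200M replicate 3 (0.0466).

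For Chga the effects in the 2 tissues were not told apart. The effect in pituitary minus that in hypothalamus was -0.11 among young mice (95% interval from -0.46 to 0.25) and 0.14 among older mice (from -0.25 to 0.53). Against ovary, 0 members in the young cohort had a called difference by edgeR, beside 10.1% of genes, with 3 members under an unadjusted p of 0.05. DESeq2 called Pam and Vgf. Vgf, at 0 to 6 counts in each young WT and 200M ovary library, was below the low-count filter in ovary and entered this fit through pituitary alone, so its value is no test of an effect in ovary. Pam was called there without pituitary 200M replicate 4 (adjusted p = 0.0371) or ovary 200M replicate 2 (0.0346). In the older cohort Pam differed between pituitary and ovary by 0.93 ± 0.19 (adjusted p = 0.0121 by edgeR), beside 5.77% of genes called and 3.29% called larger in pituitary, and Cpe joined it without ovary 200M replicate 4 (0.0368). Tissues of a mouse may be shared between these tests, as the labels do not say which libraries came from the same animal.

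**Figure D4:**
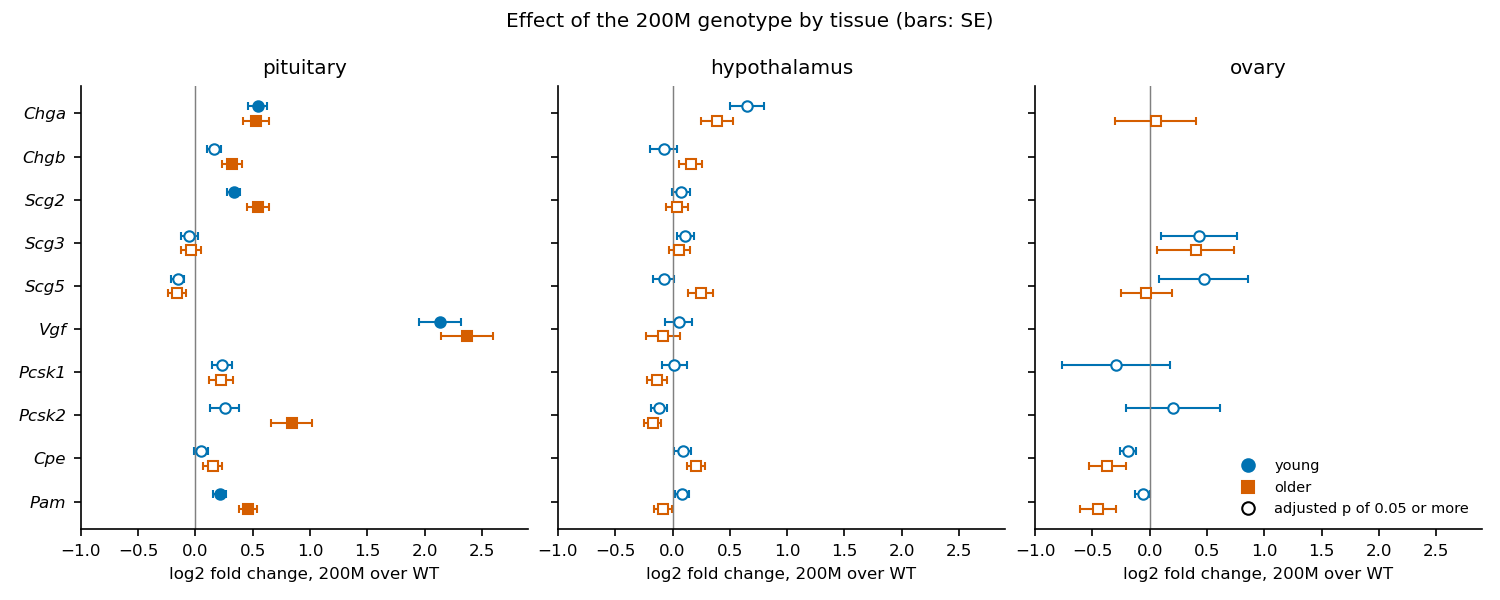
Log2 fold change of 200M over WT for each member in pituitary, hypothalamus and ovary, young (circles) and older cohort (squares). Bars are SE, filled symbols are adjusted p under 0.05, and members below the low-count filter are not drawn. Vgf stands at 2.14 and 2.37 in pituitary and at 0.05 and -0.08 in hypothalamus, and no symbol is filled outside pituitary.

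The rest of the granule machinery in 200M pituitary moved in both directions. Other processing enzymes and their inhibitors showed 1 gene higher and 1 lower of 14 tested among young mice and of 13 among older mice, with medians of -0.07 and 0.02. Of all genes tested, 21.5% (young) and 21.4% (older) were called, and 11.5% and 11.7% called higher, so this list did not stand out. Pcsk6, a convertase of the constitutive pathway that cuts growth factor precursors, was lower in both, at -0.74 ± 0.10 (adjusted p = 0.000146 by edgeR) and -0.78 ± 0.11 (adjusted p = 0.000383). Its mean fell from 692 CPM in young WT to 417 CPM in young 200M, and no WT and 200M library overlapped in either cohort. It was the gene of this list called in both cohorts.

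Of 14 genes for granule formation and the granule membrane, 3 were higher and 8 lower in young 200M and 2 higher and 6 lower in older 200M, with medians of -0.27 and -0.18. Of all genes tested, 10% (young) and 9.77% (older) were called lower. Ptprn, a membrane protein of dense-core granules, was higher at 0.50 ± 0.07 (adjusted p = 0.000104 by edgeR) and 0.63 ± 0.11 (adjusted p = 0.00177). Slc18a2, the vesicular monoamine transporter of neurons, was higher at 1.61 ± 0.21 (adjusted p = 7.77e-05) and 2.51 ± 0.31 (adjusted p = 0.000169), from a mean of 5.44 to 16.7 CPM in the young cohort, whereas Slc18a1, its endocrine counterpart, was lower at -0.91 ± 0.19 (adjusted p = 0.00317) and -0.77 ± 0.21 (adjusted p = 0.0229). Rab3d, a Rab protein of exocrine and endocrine granules, was lower at -1.20 ± 0.13 (adjusted p = 1.41e-05) and -0.98 ± 0.12 (adjusted p = 0.000198). Nucb2, the precursor of nesfatin, was lower at -0.38 ± 0.08 (adjusted p = 0.00236) and -0.57 ± 0.12 (adjusted p = 0.00651).

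Docking and release genes numbered 12, of which 5 were higher and 3 lower in young and 5 higher and 1 lower in older 200M pituitary, with medians of 0.19 in both. Of all genes tested, 11.5% (young) and 11.7% (older) were called higher, and 10% and 9.77% lower. Cadps, which primes dense-core granules for fusion, was higher at 0.70 ± 0.08 (adjusted p = 1.29e-05 by edgeR) and 0.86 ± 0.12 (adjusted p = 0.000400). Snap25, a SNARE protein of the plasma membrane, was higher at 0.31 ± 0.06 (adjusted p = 0.00114) and 0.53 ± 0.08 (adjusted p = 0.000708), and Rab3a at 0.50 ± 0.16 (adjusted p = 0.0338) and 0.58 ± 0.11 (adjusted p = 0.00290). Rab27a, which links granules to the cell cortex, was lower at -0.38 ± 0.07 (adjusted p = 0.00148) and -0.28 ± 0.08 (adjusted p = 0.0326). In hypothalamus and ovary 0 genes of these 3 lists were called in 200M against WT. Of all genes, 0.02% (young) and 0.00622% (older) were called in hypothalamus, and 2.58% and 2.71% in ovary.

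**Figure D5:**
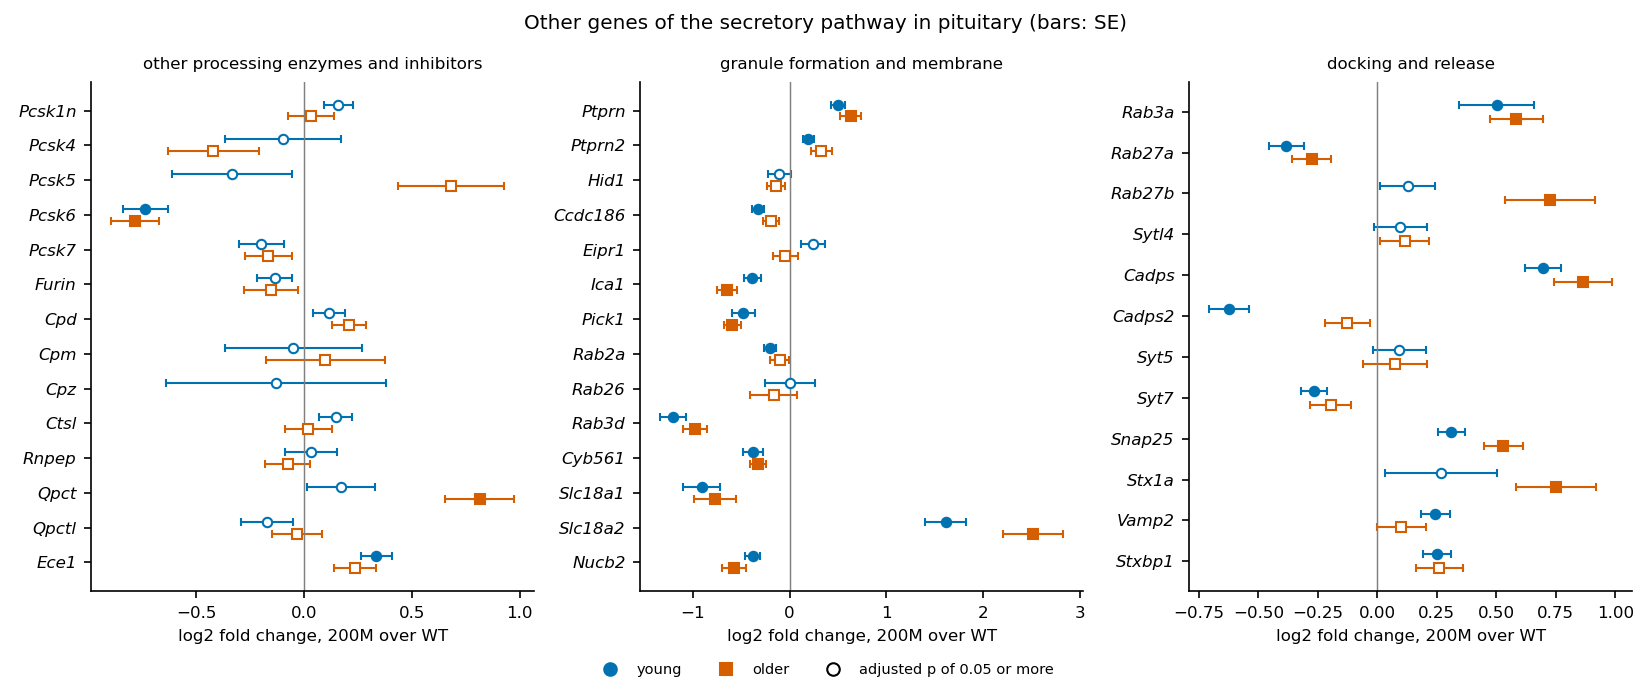
Log2 fold change of 200M over WT in pituitary for other processing enzymes and inhibitors (left), granule formation and membrane genes (middle) and docking and release genes (right), young (circles) and older cohort (squares). Bars are SE and filled symbols are adjusted p under 0.05, and the horizontal scales differ. Slc18a2 lies farthest right at 1.61 and 2.51, and Rab3d farthest left at -1.20 and -0.98.

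The cargo of the granules changed beside them. Among 7 pituitary hormone genes, Prl was lower at -1.61 ± 0.12 (adjusted p = 2.86e-07 by edgeR) and -1.66 ± 0.13 (adjusted p = 3.40e-06), Lhb at -1.68 ± 0.14 and -2.33 ± 0.25, and Cga at -0.66 ± 0.08 and -0.81 ± 0.11, in young and older 200M respectively. Pomc, given above, was the hormone gene called higher, in the older cohort. Of 18 hypothalamic peptide genes 6 were tested in pituitary in each cohort, and Gal, which encodes galanin, was called higher at 1.66 ± 0.25 (adjusted p = 0.000259) and 1.20 ± 0.28 (adjusted p = 0.0105), as was Pdyn, which encodes prodynorphin, at 0.69 ± 0.20 (adjusted p = 0.0209) and 0.83 ± 0.17 (adjusted p = 0.00460). None of these 6 was called lower, beside 10% (young) and 9.77% (older) of all genes.

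Over the 18 group means of log2 CPM, Pearson's r of each member with the mean z-score of all 10 ran from 0.92 to 0.99 for 9 members and was 0.27 for Cpe, which ovary expresses. The genes of the highest likeness to that mean, of 15238 compared, were Gprin1 (r = 0.996), Slc6a17 (r = 0.994), Ccdc92b (r = 0.993), Ap3b2 (r = 0.993) and Tmem59l (r = 0.992). The 18 points mix tissues, cohorts and genotypes, and groups of a cohort share its library chemistry.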

How the data were processed

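RNA was sequenced from single mice. Per the labels and the study's methods, the authors aligned reads with STAR 2.7.1a to mm10 and counted them per gene, with featureCounts (GENCODE vM25) for young libraries and older ovary and HTSeq 0.9.1 for older pituitary and hypothalamus. The deposited values used here are these raw counts. Columns of the authors' own tests were not used, nor were 3 count columns of samples not analysed here. Replicates come from different mice.

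Counts were filtered with filterByExpr, scaled by TMM and tested per tissue and cohort, pair by pair of genotypes, with edgeR 4.0.16 quasi-likelihood tests in R 4.3.3, adjusted by Benjamini-Hochberg over all genes kept, and DESeq2 1.42.0 as an alternative. Differences between tissues or cohorts were interaction terms. The fits were tested on simulated data. Likeness used log2(CPM + 0.5). Members, lists and tests were chosen with earlier results of these data known. All 10 members are named. Of the enzyme, granule and release lists, genes called in 200M against WT pituitary of both cohorts are named, at most 5 a list by smallest young p. The 5 genes most alike are named by r. Other genes were chosen after their values were seen. Depth limits the precision of low counts, above all in ovary.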

Additional observations from a re-analysis of the deposited data

Results flagged for a closer look

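In groups of 4 libraries, 149 sets of a member's values were tested for a single value far from the rest by Dixon's criterion, and 8 stood apart, where chance gives about 1 in 20. In young pituitary these were Chgb in 200M replicate 1 (1068 CPM, the others at 897 to 920 CPM) and Pam in 200H replicate 2 (851 CPM, the others at 720 to 742 CPM). In hypothalamus they were Pcsk2 in young 200M replicate 3 (298 CPM against 268 to 270 CPM), Pcsk2 in older 200H replicate 3 (253 CPM against 216 to 218 CPM) and Cpe in young 200H replicate 4 (517 CPM against 532 to 534 CPM). In ovary they were Scg2 in older 200M replicate 4 (0.152 CPM, the others at 0), Scg3 in young WT replicate 4 (1.12 CPM against 2.20 to 2.40 CPM) and Pcsk1 in young 200M replicate 3 (1.99 CPM against 0.919 to 0.996 CPM). The ovary values rest on few counts.

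The 200M effect differed between tissues, by the interaction test, for 6 values on the log2 scale. Against hypothalamus the effect in pituitary was larger for Vgf by 2.08 among young mice, and among older mice for Vgf by 2.45, Pcsk2 by 1.02, Pam by 0.55 and Scg2 by 0.51. Against ovary it was larger for Pam by 0.93 in the older cohort. The causes of these values were not tested.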

How the results depend on the processing

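The higher levels of Chga, Scg2 and Vgf in 200M pituitary of both cohorts, and of Pcsk2 and Pam in that of the older cohort, were called under each of 12 alternatives. Of 1133 alternatives of 91 member fold changes, 1033 kept direction and side of the threshold, 28 gained a call, 23 lost one and 49 changed sign in 24 results, none with a call in either fit. With library sizes taken without Prl, Gh and Pomc, 49 of 60 mean CPM values in pituitary moved by more than 1 SD. All 60 rose, in every genotype. Chga, for example, went from 767 to 999 CPM in older WT and from 1096 to 1426 CPM in older 200M. The causes of changes in call were not tested.

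Libraries of the same replicate number were not steadily alike: 13 of 64 same-numbered pairs of deviations had r over 0.1 (range -0.60 to 0.43), and in 0 of 18 comparisons were all above it. With 3 or 4 libraries a group, this check cannot show whether same-numbered mice shared a litter, cage or batch. With the replicate block the number of members called was 1 for 200H against WT in young pituitary and 3 for 200M against 200H in older pituitary. The share of all genes called with the block is not given, so these counts are not a result about the members. The replicate block changed the sign for young pituitary of Scg3 (0.04) and Pcsk2 (-0.10) in 200M against WT and of Chgb (0.02), Scg3 (0.10) and Cpe (-0.01) in 200H against WT, and for older pituitary of Scg3 in 200M against 200H (-0.02).

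With no filter on low counts the members called were 7 for 200M against WT in young pituitary and 1 in hypothalamus of each cohort, 2 for 200H against WT in older pituitary, and for 200M against 200H 1 in young pituitary, 1 in young hypothalamus, 5 in older pituitary and 3 in older hypothalamus. It gave 2 young differences against hypothalamus and 1 against ovary, again Vgf, and Scg5 in 200M against 200H of young pituitary at 0.01. The share of all genes called with no filter is not given, so these counts are not a result about the members. DESeq2 called 2 for 200H against WT and 3 for 200M against 200H in older pituitary, 1 for 200M against 200H in older hypothalamus, and 2 young and 3 older differences against ovary. Of these, Vgf (young) and Chgb (older) were below the low-count filter in ovary and entered through pituitary alone, so they test no effect in ovary. Over all genes it called, for 200M against WT, 632 against 1 by edgeR in older hypothalamus and 1324 against 482 in older ovary. For 200H against WT it called 76 against 1 (young ovary), 5 against 0 (older hypothalamus) and 21 against 0 (older ovary). For 200M against 200H it called 44 against 7 and 125 against 18 (young and older pituitary), 637 against 0 (older hypothalamus) and 876 against 288 (older ovary). In young hypothalamus it called 0 against 3 for 200M and 1 against 3 for 200H, both against WT, and for the differences of older pituitary against ovary and of the cohorts 1699 against 1082 and 16 against 5. Fitting the 3 genotypes together gave 2 members for 200H against WT and 0 for 200M against 200H in older pituitary. The share of all genes called is not given for that fit either.

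Leaving out 1 library, the members called ran for 200H against WT from 0 to 3 in young and 0 to 1 in older pituitary, for 200M against 200H from 0 to 1 in young and 0 to 4 in older pituitary, and the differences between tissues from 1 to 2 (young, hypothalamus), 0 to 1 (young, ovary) and 1 to 2 (older, ovary). The shares of all genes called in these fits are not given, so the ranges are not a result about the members. Uncalled log2 fold changes also crossed 0 when 1 library was left out. For 200M against WT these were in young pituitary Scg3 (-0.14 to 0.03), in older pituitary Scg3 (-0.08 to 0.03), in young hypothalamus Chgb (-0.14 to 0.01), Vgf (-0.04 to 0.18) and Pcsk1 (-0.09 to 0.15), in older hypothalamus Scg2 (-0.05 to 0.11) and Vgf (-0.20 to 0.07), in young ovary Pcsk1 (-0.63 to 0.01) and Pcsk2 (-0.06 to 0.49), and in older ovary Chga (-0.12 to 0.27) and Scg5 (-0.11 to 0.11). For 200H against WT they were in young pituitary Chgb (-0.07 to 0.01), Scg3 (-0.17 to 0.003) and Cpe (-0.002 to 0.09), and in older pituitary Pcsk2 (-0.26 to 0.10). For 200M against 200H they were in young pituitary Cpe (-0.01 to 0.05), Pcsk1 (-0.02 to 0.14), Pcsk2 (-0.03 to 0.15), Scg3 (-0.01 to 0.09) and Scg5 (-0.02 to 0.03), and in older pituitary Chgb (-0.04 to 0.20), Scg3 (-0.02 to 0.07) and Scg5 (-0.09 to 0.02).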
